A study of Mus musculus with 12 samples.

Results

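Fatty acid oxidation was described through 33 genes, taken by name from a list of the enzymes, carriers and regulators of the pathway. The table holds 47719 genes, and 33 of the 33 passed the filter on low values (1 FPKM or more in at least 3 of 12 libraries), as did 14109 genes in all. FPKM is the number of fragments scaled by the length of the transcript and by the mapped fragments of the library. Of the members, 17 were classed as mitochondrial, 8 as peroxisomal and 8 as other. The last class holds enzymes of both organelles, the activating enzyme Acsl1, the thioesterases Acot1 and Acot2, and the regulators.

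RNA of kidney was sequenced from C57BL6/J males, 8 weeks of age per the labels, after 6 weeks on a liquid Lieber-DeCarli diet. The groups, of 3 libraries each, were PF (pair-fed control diet with maltose-dextrin, saline), PF4hLPS (the same diet, lipopolysaccharide), EtOH (ethanol diet ending at 6% ethanol, saline) and EtOH4hLPS (the ethanol diet, lipopolysaccharide). Lipopolysaccharide (LPS), an outer membrane component of Gram-negative bacteria, was from E. coli and was given intraperitoneally at 10 mg/kg, and tissue was taken 4 hours after LPS or saline. All groups had a liquid diet and an injection, so no group shows untreated kidney. The labels call the source whole kidney and the region cortex. They number 3 replicates per group without saying that each is a separate mouse, so a p-value here reflects only how far the libraries of a group spread, which may be technical.

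Long-chain fatty acids are activated to acyl-CoA, carried into mitochondria as carnitine esters, and shortened in repeated cycles of dehydrogenation, hydration, dehydrogenation and thiolysis, whose electrons pass through the electron transfer flavoprotein to the respiratory chain. Peroxisomes run a like cycle on very long, branched and dicarboxylic chains, with an oxidase that makes hydrogen peroxide in the first step, and export the shortened chains as carnitine esters. The proximal tubule of the kidney cortex draws most of its energy from this pathway, and the nuclear receptor PPAR alpha with the coactivator PGC-1 alpha drives many of its genes.

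Library totals of the deposited FPKM ran from 1005219 to 1935824. Relative depth, read from how finely low values are spaced with PF library 1 set to 1, lay between 0.491 (PF4hLPS library 2) and 1.2 (PF library 3), and was at most 0.762 in the 6 LPS libraries. GC-rich genes stood below their group mean in PF library 1, PF4hLPS library 2 and EtOH4hLPS library 1 (Pearson r of the deviation with GC content over the genes tested −0.401, −0.472 and −0.4; descriptions across genes, which share each library). Of 15 proximal tubule markers 15 were tested, led by Kap, and their summed FPKM lay between 47810 and 114600. Podocyte markers, of the glomeruli in the cortex, had 5 of 5 tested, and renal medulla markers 4 of 5, with sums of 87.2 to 253 FPKM. Adipocyte markers (0 of 7 tested) summed to 18.12 FPKM in PF library 2, where Adipoq and Ucp1 were detected, and to at most 2.8 in the other 11 libraries, and adrenal cortex markers (0 of 5 tested) to at most 0.852. Neutrophil and monocyte markers summed to 11.5 to 20.1 FPKM with saline and 180 to 461 with LPS. Endothelial markers summed to 93.6 to 123 and 42.3 to 63.3. Not every marker moved with its sum. At limma adjusted p under 0.05, LPS calls among 6 tested neutrophil and monocyte markers were 4 higher and 1 lower on the control diet. On the ethanol diet these calls were 2 higher and 1 lower. Of 6 tested endothelial markers, 1 was higher and 4 were lower on each diet. The part of these cell types in the members' values was not tested. In bulk tissue, fewer cells of a type and less RNA per cell cannot be told apart.

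Promoter sequences are shown for Ppargc1a and Pdk4, the members with the steepest LPS fold changes, and for Cpt2, which also passed the test. Each is the 250 bases before the RefSeq start site (GRCm38.p6), and all 3 genes lie on the minus strand. PPAR alpha binds with RXR to 2 direct repeats of AGGTCA spaced by 1 base, so that direct repeat (at most 2 mismatches over both copies, both strands) and a single AGGTCA with no mismatch were searched, and TGACGT, the core of the cAMP response element, was added after the sequences were seen. Capitals mark a match, here a TGACGT match on the reverse strand of Ppargc1a whose first base lies 50 bases before the start, and a sequence without capitals holds none of the 3 motifs in this window.
Ppargc1a, chr5:51567726-51567975: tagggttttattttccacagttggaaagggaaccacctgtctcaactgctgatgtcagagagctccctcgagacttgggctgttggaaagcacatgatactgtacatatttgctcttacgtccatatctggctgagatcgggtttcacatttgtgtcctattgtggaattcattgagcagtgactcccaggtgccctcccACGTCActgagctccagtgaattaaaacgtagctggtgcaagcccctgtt
Pdk4, chr6:5496279-5496528: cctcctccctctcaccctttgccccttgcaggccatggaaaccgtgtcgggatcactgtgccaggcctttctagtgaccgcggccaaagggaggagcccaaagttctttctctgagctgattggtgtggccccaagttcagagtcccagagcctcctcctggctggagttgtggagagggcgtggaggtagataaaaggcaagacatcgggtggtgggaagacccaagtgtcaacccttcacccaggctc
Cpt2, chr4:107923590-107923839: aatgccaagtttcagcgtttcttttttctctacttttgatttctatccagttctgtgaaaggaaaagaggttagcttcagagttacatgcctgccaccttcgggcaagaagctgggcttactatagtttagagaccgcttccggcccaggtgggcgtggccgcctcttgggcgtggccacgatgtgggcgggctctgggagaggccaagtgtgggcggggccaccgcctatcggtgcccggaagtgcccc

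RefSeq promoters were found for 29 of the 33 members, and not for Acaa2, Crat, Decr1 and Hsd17b4. The direct repeat was in 2 of 29 members (6.9%), against 3.72% of the 27025 genes of the promoter table. Echs1 held AGGTCACGGGTCC, beginning 83 bases before its start, and Etfa held TTACCTTTGCCCT on the reverse strand, beginning 77 bases before its start. A single AGGTCA was in 4 of 29 members (13.8%, against 15.8%), and it overlaps the repeat in Echs1. TGACGT was in 2 of 29, Ehhadh and Ppargc1a (6.9%, against 7.29%). A further sequence is the 85 bases between the first exons of Hadha and Hadhb, the subunit genes of the mitochondrial trifunctional protein. They are read away from each other, Hadha on the minus strand (chr5:30118304-30155162, GENCODE M21 on GRCm38) and Hadhb on the plus strand (chr5:30155248-30184593). The interval holds 69.4% G and C.
Hadha to Hadhb, chr5:30155163-30155247, plus strand: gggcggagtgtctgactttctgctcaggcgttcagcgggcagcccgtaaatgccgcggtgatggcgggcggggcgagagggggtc

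Among the members, Acadm (medium-chain acyl-CoA dehydrogenase) had the highest mean level over the 12 libraries, 708 FPKM. Etfa, a subunit of the electron transfer flavoprotein, followed at 418 FPKM, the peroxisomal carnitine octanoyltransferase Crot at 327, the other flavoprotein subunit Etfb at 286, and the peroxisomal bifunctional enzyme Ehhadh at 279. At the low end stood Ppargc1a at 15.5 FPKM, the thiolase Acaa1a at 14.99, and the thioesterases Acot1 at 13.4 and Acot2 at 6.32. Etfb and Ehhadh, neighbours in this order, did not differ beyond their spread over libraries, whereas Acot1 was above Acot2 in all 12 libraries. Replicates of a group varied with a median coefficient of variation over the members of 14.4% in PF, 12.6% in EtOH, 26.1% in PF4hLPS and 21.4% in EtOH4hLPS. PF4hLPS library 2 was the lowest of its group for 22 of 33 members and EtOH4hLPS library 1 for 26 of 33, both among the libraries low in GC-rich genes. EtOH library 2 was the lowest of its group for 24 of 33, with r = −0.045 for GC content over the genes tested and a relative depth of 0.72. Some levels are uncertain because the coding sequences of Acaa1a and Acaa1b were 96.5% identical, with a shared run of 327 bases, and those of Acot1 and Acot2 95.3%, with a run of 273. Exons of Acaa1a overlap the opposite-strand gene Myd88 (15.2 FPKM on average), and those of Acaa1b overlap Dlec1 (8.33 FPKM). The strand setting of the counting is not known here, so such pairs may share fragments.

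LPS in pair-fed mice (PF4hLPS against PF) asked what endotoxin does to the kidney on the control diet. Of 33 members 1 rose, Crot, and 1 fell, Ppargc1a, and 31 did not pass (6.06% called, against 18.2% of the 14109 genes tested, 11.3% higher and 6.89% lower, by limma at adjusted p under 0.05). The median log2 fold change of log2(FPKM + 1) was −0.017 over the members and −0.007 over all genes tested. Groups did not overlap for 5 members (15.2%, against 34.2% of all genes tested, 18.5% higher and 15.7% lower), higher with LPS for Acadl, Crot and Pdk4 and lower for Acot2 and Ppargc1a. Fold changes are given as log2 of FPKM + 1 with the standard error from limma, and mean FPKM with the SD over n = 3 libraries.

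Ppargc1a (chr5:51454250-51567726), whose product PGC-1 alpha coactivates oxidation genes and mitochondrial biogenesis, was at 22.3, 20.2 and 19.7 FPKM in PF and at 6.58, 10.0 and 4.77 in PF4hLPS. Every LPS library was below every saline library. The mean fell from 20.8 ± 1.40 to 7.12 ± 2.65 FPKM, a log2 fold change of -1.47 ± 0.36 (limma adjusted p = 0.0152). Without PF4hLPS library 3 the fold change was −1.25 and the adjusted p 0.0586, and with all 36616 genes above 0 tested the adjusted p was 0.0528. Pdk4, the kinase that switches off pyruvate dehydrogenase and so spares glucose when fat is burned (chr6:5483351-5496309), was at 22.2, 14.6 and 6.10 FPKM in PF and at 112, 59.0 and 124 in PF4hLPS. These groups did not overlap either, with all 3 LPS libraries higher. The log2 fold change of 2.79 ± 1.02 did not pass (limma adjusted p = 0.0955). Since 1 spread was fitted over all groups, the wide Pdk4 values of EtOH4hLPS entered that test. Without EtOH4hLPS library 1 the adjusted p was 0.00112, and with PF and PF4hLPS alone 0.00991. Pdk4 passed in 1 of 12 single omissions and in 2 of 12 other settings. Over all settings its adjusted p ran up to 0.275 and its fold change down to 2.31. Ppara, the nuclear receptor itself, was at 16.9, 24.9 and 39.1 FPKM in PF and at 37.2, 24.0 and 22.7 in PF4hLPS, groups that overlapped (log2 fold change 0.10 ± 0.27).

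**Figure D1:**
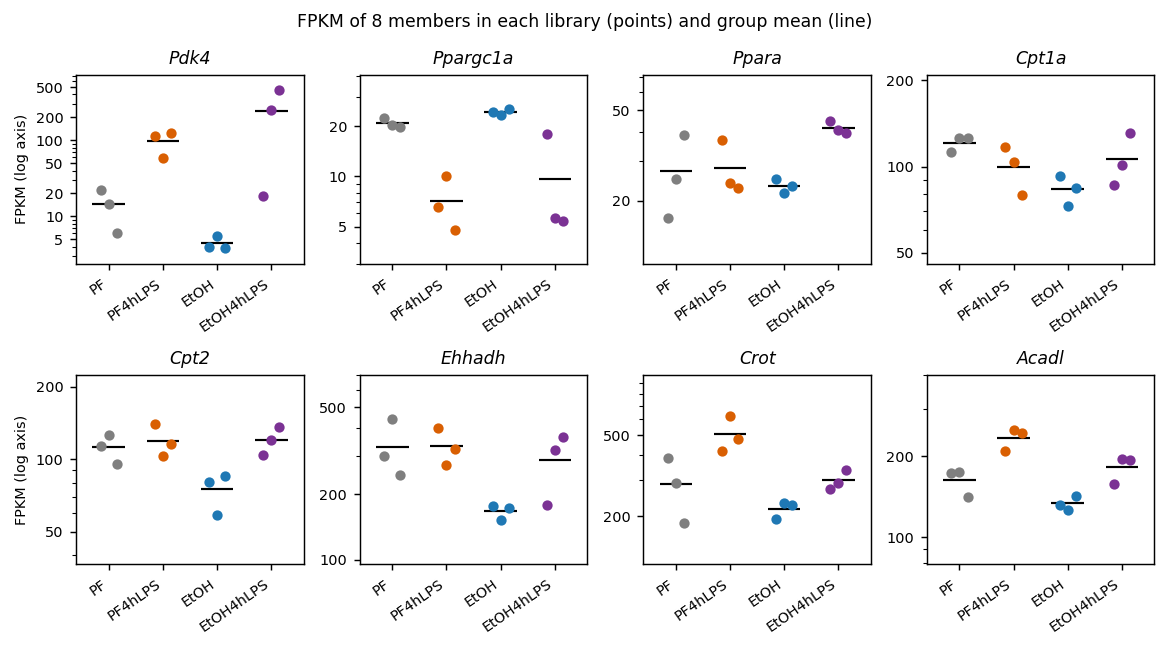
FPKM on a log axis (y) of 8 members in the 4 groups (x), with 1 point per library and a line at the group mean of 3 libraries. Ppargc1a is below every saline library in all 6 LPS libraries, Pdk4 is above its saline group in all of them, and EtOH4hLPS library 1 stands apart from the other 2 of its group for both genes.

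Crot, which makes carnitine esters of the medium chains that leave the peroxisome (chr5:8966033-8997324), was at 387, 290.3 and 185 FPKM in PF and at 420.2, 619 and 477 in PF4hLPS. The groups did not overlap, and PF library 1 came close to the lowest LPS library. Its log2 fold change was 0.86 ± 0.26 (limma adjusted p = 0.0415). That call did not hold with 9 of the 12 libraries left out in turn (PF 2 and 3, PF4hLPS 2 and 3, EtOH 1, 2 and 3, EtOH4hLPS 2 and 3; adjusted p 0.0521 to 0.175, the last without PF library 3 at a fold change of 0.57), nor with equal total FPKM (0.36, adjusted p = 0.229) or quantile normalization (0.51, adjusted p = 0.193). It was also lost with no filter (adjusted p = 0.108) and with PF and PF4hLPS fitted alone (0.139). No other peroxisomal member passed. Acox3, an oxidase of branched acyl-CoA, was at 72.1, 64.4 and 85.5 FPKM in PF and at 66.5, 55.5 and 62.2 in PF4hLPS (log2 fold change -0.26 ± 0.16; limma adjusted p = 0.31). Its groups overlapped. The bifunctional enzyme Ehhadh was at 300.0, 439.7 and 244 FPKM in PF and at 401, 271 and 322 in PF4hLPS, ranges that overlapped (log2 fold change 0.04). The thiolase Acaa1b was at 35.7, 53.9 and 48.5 FPKM in PF and at 48.2, 12.9 and 46.7 in PF4hLPS, with 1 LPS library far below the rest, the library low in GC-rich genes. Its paralog Acaa1a showed the same low library, at 16.2, 4.91 and 14.5 FPKM against 8.28, 11.5 and 18.04 in PF. The 3 peroxisomal members not yet named, Acox2, Hsd17b4 and Decr2, had log2 fold changes of −0.14 to −0.084.

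Of the 17 mitochondrial members 0 passed in pair-fed mice, where 1 had an unadjusted p under 0.05, against 4395 of 14109 genes. That one was Acadl, long-chain acyl-CoA dehydrogenase, at 173, 175 and 142 FPKM in PF and 209, 251 and 244 in PF4hLPS. All 3 LPS libraries were above all saline libraries (log2 fold change 0.52 ± 0.17, limma adjusted p = 0.0531). The adjusted p was 0.0413 without PF4hLPS library 1 and 0.0481 without EtOH4hLPS library 1. Acadl passed in only these 2 of 12 single omissions (adjusted p up to 0.215 in the others) and in 1 of 12 other settings. Over all settings its fold change ran down to 0.026 and its adjusted p up to 0.93. Cpt1a, the outer-membrane enzyme that sets the rate of carnitine-dependent import, was at 113, 126 and 125 FPKM in PF and 117, 104 and 79.9 in PF4hLPS, and the groups overlapped (log2 fold change -0.29 ± 0.20). The inner-membrane partner Cpt2 was at 114, 126 and 95.8 and 140.0, 103 and 116 FPKM, also overlapping. Across the other mitochondrial members the fold changes ran from −0.54 (Acads, short-chain acyl-CoA dehydrogenase) to 0.27 (Etfa). Among the members of both organelles, the carnitine acetyltransferase Crat was at 25.7, 34.1 and 37.4 FPKM in PF and at 26.5, 15.4 and 22.01 in PF4hLPS. Its groups overlapped by 1 LPS library (log2 fold change -0.60 ± 0.23; limma adjusted p = 0.104). Crat and Acox3 were called lower by limma under both other scalings. Crat was at −1.07 (adjusted p = 0.0361) with equal total FPKM and −0.85 (0.0278) with quantile normalization, and Acox3 at −0.75 (0.0435) and −0.61 (0.0258). These scalings called 2565 and 1168 of the 14109 genes tested lower, against 972 without them. On ethanol Crat was at 27.5, 29.3 and 20.7 FPKM in EtOH and 19.6, 27.8 and 26.4 in EtOH4hLPS, which overlapped.

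LPS in ethanol-fed mice (EtOH4hLPS against EtOH) put the same question on the ethanol diet. Of 33 members 2 rose, Pdk4 and Cpt2, 1 fell, Ppargc1a, and 30 did not pass (9.09% called by limma, against 17.1% of all genes tested, 10.7% higher and 6.39% lower). The groups did not overlap for 14 members (42.4%, against 33.6% of all genes tested), 13 of them higher with LPS (18.8% of all genes were) and 1 lower (14.8%). Log2 fold changes were positive for 26 of 33 members (78.8%, against 51.6% of all genes tested), with a median of 0.34, against 0.018 over all genes. The positive median depends on scaling: it was 0.012 with equal total FPKM, where the median of all genes moved to −0.26, and −0.027 with quantile normalization, where it moved to −0.12. In pair-fed mice these scalings moved the median of all genes to −0.41 and −0.11, and that of the members to −0.50 and −0.31.

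Pdk4 was at 4.01, 5.49 and 3.78 FPKM in EtOH, the lowest group, and at 18.8, 250 and 457 in EtOH4hLPS. The lowest LPS library was above every saline library of this diet but below PF library 1, and the other 2 were the highest of the series. Its log2 fold change was 4.61 ± 1.02 (limma adjusted p = 0.0135), and 4.15 with an adjusted p of 0.0546 without EtOH4hLPS library 2. With EtOH and EtOH4hLPS fitted alone the adjusted p was 0.104. Ppargc1a was at 24.4, 23.3 and 25.5 FPKM in EtOH and at 18, 5.67 and 5.38 in EtOH4hLPS. Here too library 1 of the LPS group lay nearer to saline than the other 2, and the groups did not overlap. Ppargc1a fell by 1.45 on the log2 scale (SE 0.36; limma adjusted p = 0.0168), a call that 4 single omissions ended: EtOH library 1 (0.0526), EtOH library 3 (0.055), EtOH4hLPS library 2 (0.0763) and EtOH4hLPS library 3 (0.0756). It was 0.0588 with no filter and 0.0549 with the 2 groups fitted alone. Ppara was at 24.9, 21.5 and 23.3 FPKM in EtOH and at 44.9, 40.8 and 39.6 in EtOH4hLPS. These 3 LPS libraries were above all 9 other libraries of the series. The log2 fold change of 0.82 ± 0.27 did not pass (limma adjusted p = 0.059), and it did without PF library 1 (0.0301), PF library 3 (0.0261) or PF4hLPS library 1 (0.0453), none of which is in the comparison. It was also called with EtOH and EtOH4hLPS fitted alone (0.0114) and with the GC trend of each library removed (0.0384). These were 3 of 12 single omissions and 2 of 12 other settings. Under the rest Ppara did not pass, with a fold change down to 0.493 and an adjusted p up to 0.395.

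Cpt2, which turns acyl-carnitine back into acyl-CoA inside the mitochondrion (chr4:107903981-107923610), was at 80.8, 58.6 and 85.5 FPKM in EtOH and at 105, 121 and 136 in EtOH4hLPS. All LPS libraries were above all saline libraries, and EtOH library 2 was the lowest. The log2 fold change was 0.69 ± 0.20 (limma adjusted p = 0.037). The adjusted p was 0.0533 to 0.151 with any of 6 libraries left out (PF 1 and 2, EtOH 1 and 2, EtOH4hLPS 2 and 3), 0.415 with equal total FPKM and 0.409 with quantile normalization. It was 0.0984 with no filter and 0.0671 with the 2 groups fitted alone. Cpt1a was at 93.0, 73.1 and 84.0 and 86.3, 102 and 131 FPKM, and its groups overlapped (log2 fold change 0.33 ± 0.20; limma adjusted p = 0.323). Hadha, the long-chain hydratase and dehydrogenase subunit of the trifunctional protein, was at 92.0, 82.6 and 104 FPKM in EtOH and at 108, 172 and 129 in EtOH4hLPS. The groups did not overlap, and 1 LPS library stood near the highest saline library (log2 fold change 0.53 ± 0.20; limma adjusted p = 0.104). Hadhb, its thiolase subunit beyond the short interval printed above, was at 152, 111 and 226 and 219, 186 and 200.3 FPKM, with EtOH library 3 as high as the LPS libraries (log2 fold change 0.37 ± 0.23). Decr1, the mitochondrial dienoyl-CoA reductase for unsaturated chains, was at 83.1, 66.1 and 94.4 and 96.4, 123 and 109 FPKM, a log2 fold change of 0.43 ± 0.18 (limma adjusted p = 0.139). Its groups did not overlap. The remaining mitochondrial members whose groups did not overlap, Acadl, Hadh, Echs1, Etfa and Etfdh, had fold changes of 0.24 (Hadh) to 0.62 (Echs1, the short-chain enoyl-CoA hydratase; limma adjusted p = 0.0631).

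Of the 8 peroxisomal members 0 passed in ethanol-fed mice, with 1, Ehhadh, at an unadjusted p under 0.05. Ehhadh was at 177, 153 and 173 FPKM in EtOH and at 179, 318 and 366 in EtOH4hLPS. Its LPS library 1 was only just above the saline libraries (log2 fold change 0.72 ± 0.29, limma adjusted p = 0.128). Without that library the fold change was 1.03 and the adjusted p 0.0218. Ehhadh passed in 1 of 12 single omissions and in 1 of 12 other settings. Over all settings its fold change ran down to 0.281 and its adjusted p up to 0.597. Crot was at 193, 233 and 226 and 272, 289.6 and 336 FPKM, groups that did not overlap (log2 fold change 0.46 ± 0.26; limma adjusted p = 0.284). The thiolase Acaa1a was at 14.5, 10.5 and 10.4 FPKM in EtOH and at 10.5, 31.7 and 28.9 in EtOH4hLPS, and Acaa1b at 63.7, 45.1 and 46.3 and 29.2, 74.7 and 59.4. In both paralogs LPS library 1 was the lowest of its group, and the groups overlapped (log2 fold changes 0.82 ± 0.47 and -0.0091 ± 0.47). Eci2, the enoyl-CoA isomerase found in peroxisomes and mitochondria, was at 103, 65.5 and 105 FPKM in EtOH and at 126, 179 and 149.7 in EtOH4hLPS, without overlap, and at 152, 124 and 226 in PF4hLPS (log2 fold change 0.75 ± 0.27; limma adjusted p = 0.0823). With the 3 libraries low in GC-rich genes left out of the fit, a choice made after seeing the data, 7 members were called higher and 1 lower. Of the 14109 genes tested, 1806 were then called higher and 1419 lower, against 1504 and 902 with all 12 libraries. The 5 members beyond Pdk4 and Cpt2 were Acadvl (0.71, very long-chain acyl-CoA dehydrogenase), Hadha (0.68), Echs1 (0.76), Acaa1a (1.30) and Ehhadh (1.03). Leaving out EtOH4hLPS library 1 alone gave 5 members called higher, and leaving out EtOH4hLPS library 2 gave 0 in either direction. Over all genes tested, the omission of library 1 gave 1531 higher and 1068 lower, and that of library 2 gave 1193 and 522.

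**Figure D2:**
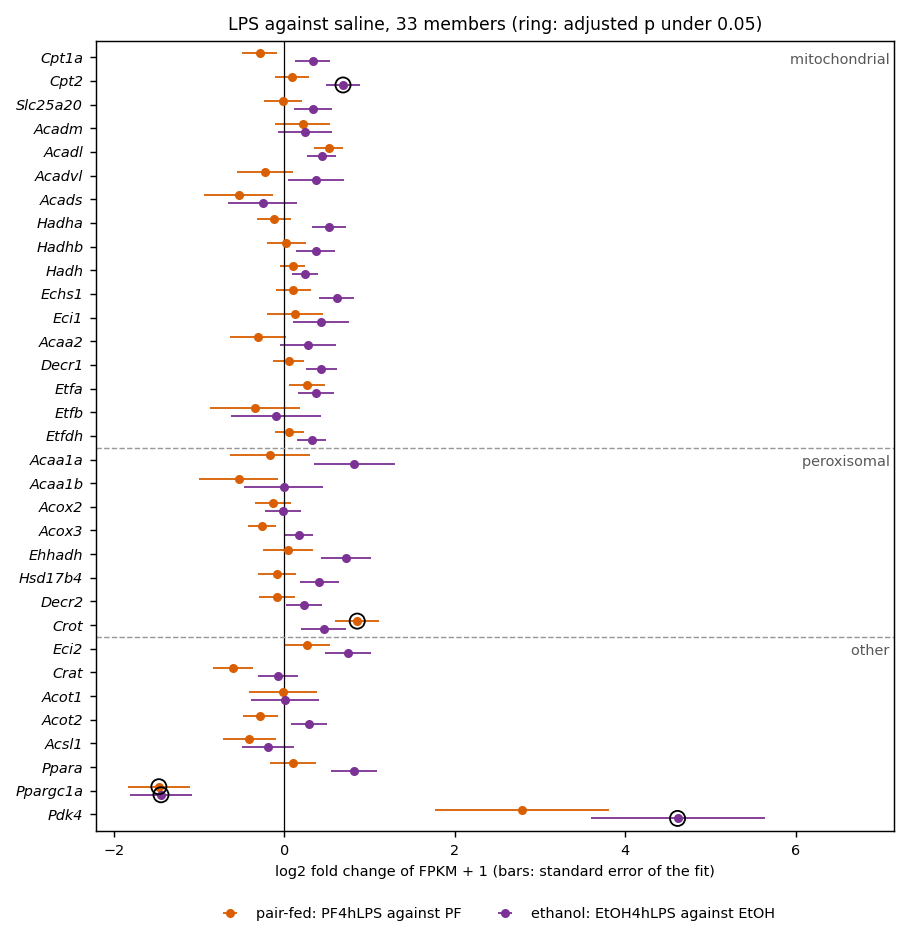
Log2 fold change of FPKM + 1 (x) of LPS against saline for each of the 33 members (y, by compartment) in pair-fed mice (orange) and ethanol-fed mice (purple). Bars are standard errors of the fit and rings mark limma adjusted p under 0.05: Crot and Ppargc1a in pair-fed mice, Cpt2, Pdk4 and Ppargc1a in ethanol-fed mice.

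Mitochondrial and peroxisomal members were set side by side as medians over all 17 and all 8. After LPS in pair-fed mice the medians were 0.053 and −0.11, a difference of 0.17. Between the 3 LPS libraries, each set against the PF mean, this gap had an SD of 0.16. After LPS in ethanol-fed mice the medians were 0.37 and 0.32, a difference of 0.046. The SD between the 3 LPS libraries was 0.031. Here too each library was set against the PF mean, whereas the difference was taken from EtOH. These SDs leave out the spread of the saline libraries. Against the PF mean, EtOH libraries 1, 2 and 3 had mitochondrial medians of −0.245, −0.427 and −0.161. Their peroxisomal medians were −0.05, −0.257 and −0.136. Neither difference is therefore said to exceed the spread between libraries, and no test was made over the list. The second difference turned negative, at −0.02 with quantile normalization, at −0.024 without EtOH4hLPS library 3 and at −0.015 without EtOH library 3, and it was 0.128 without EtOH4hLPS library 2. The first was 0.025 without PF4hLPS library 2, 0.104 without PF library 3, 0.263 without PF4hLPS library 1, 0.089 with quantile normalization, 0.01 with the GC trend of each library removed (medians of −0.038 and −0.048) and 0.057 with the 3 libraries low in GC-rich genes left out. Ethanol without LPS gave medians of −0.26 and −0.084, and ethanol with LPS 0.083 and 0.18. Against the PF mean, the mitochondrial median of a library ran from −0.43 (EtOH library 2) to 0.25 (EtOH4hLPS library 3) and the peroxisomal one from −0.40 (PF4hLPS library 2) to 0.26 (EtOH4hLPS library 3), while that of all genes stayed between −0.021 and 0.013. In PF4hLPS library 2 both classes were low, at −0.20 and −0.40, and in the other 2 libraries of that group both were positive. EtOH4hLPS library 1 was low in both classes (−0.089 and −0.10) where its group mates were at 0.16 to 0.26.

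**Figure D3:**
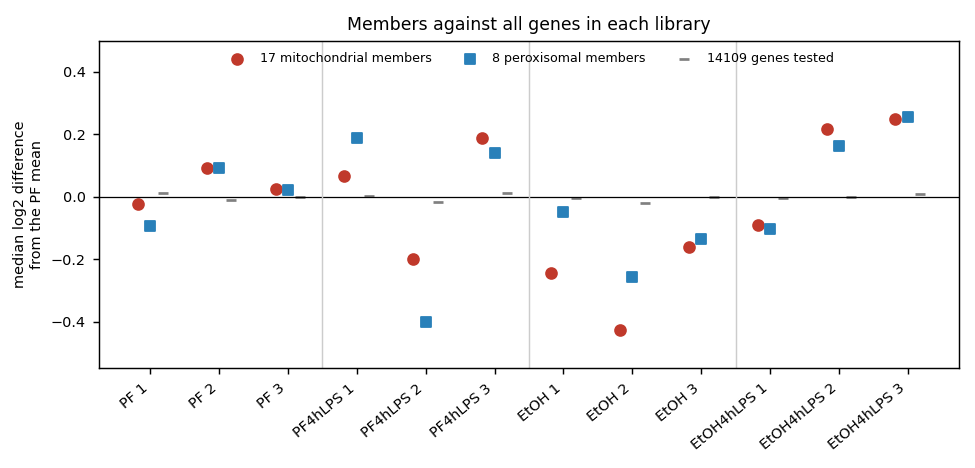
Median difference from the PF mean (y, log2 of FPKM + 1) of the 17 mitochondrial members (red circles), 8 peroxisomal members (blue squares) and 14109 genes tested (grey dashes) in each of the 12 libraries (x). The mitochondrial median is lowest in EtOH library 2 (−0.43) and the peroxisomal one in PF4hLPS library 2 (−0.40), while the median of all genes stays near 0.

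For steps that both organelles carry out, the ratio of the mitochondrial to the peroxisomal enzyme was taken in each library as a log2 ratio of FPKM + 1. In 1 of the 6 pairs, Eci1 and Eci2, the second enzyme is found in both organelles. Hadha and Ehhadh both hydrate enoyl-CoA and oxidize the product, and share 60.2% of their aligned coding bases. Their ratio was -1.55, -1.82 and -1.02 in PF and -0.94, -0.88 and -0.72 in EtOH, so the ethanol libraries without LPS were all above the pair-fed ones. With LPS it was -1.73, -1.35 and -1.78 in PF4hLPS and -0.73, -0.88 and -1.50 in EtOH4hLPS, which overlapped. The negative sign says that Ehhadh had more FPKM than Hadha in all 12 libraries. For the dienoyl-CoA reductases Decr1 and Decr2 the ratio was 2.45, 2.02 and 1.87 in PF and 1.67, 1.73 and 1.67 in EtOH, lower on ethanol in all libraries. It was 2.29, 2.51 and 1.96 in PF4hLPS and 1.82, 2.05 and 1.81 in EtOH4hLPS, and the latter were all above EtOH. Decr2 itself lay between 18.9 and 31.99 FPKM in all 12 libraries. Cpt2 over Crot, carnitine transfer in each organelle, was -1.58, -2.58 and -2.04 in PF4hLPS and -1.37, -1.26 and -1.29 in EtOH4hLPS. The ethanol libraries were all higher, and the means of PF and EtOH were -1.30 ± 0.42 and -1.54 ± 0.38 (SD, n = 3). In these 3 pairs the separations are ratios of 2 enzymes and were not tested. With 4 comparisons for each of 6 pairs, groups did not overlap in 4 of 24. No share over ratios of other gene pairs was taken. Among single genes tested, groups did not overlap for 34.2% and 33.6% with LPS on the control and ethanol diets. For ethanol without and with LPS the shares were 12.6% and 10.9%. The 4 separations are therefore not read as a result about these steps.

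Groups of the other 3 pairs overlapped in all 4 comparisons. Acadm over Acox3, the medium-chain dehydrogenase and a peroxisomal oxidase of branched acyl-CoA, had group means of 3.15 to 3.76. Acadm was at 678, 836 and 677 FPKM in PF, 955, 540.3 and 1165 in PF4hLPS, 591, 501 and 536 in EtOH and 437, 956 and 629 in EtOH4hLPS, and Acox3 at 65.3, 58.6 and 56.3 and 61.0, 66.8 and 75.5 on ethanol. The spread of Acadm within the LPS groups exceeded its shift between groups. The thiolases Hadhb over Acaa1a had means of 3.17 to 4.13, with the caution on Acaa1a given above. In pair-fed mice Hadhb was at 201, 191 and 206 FPKM with saline and 181, 202 and 228 with LPS, and Hadha at 102, 123 and 119 and 120.1, 106 and 92.8. The isomerases Eci1 over Eci2 had means of -1.53 to -1.02. Eci1 was at 40.9, 58.3 and 54.9 FPKM in PF, 55.2, 35.5 and 86.6 in PF4hLPS, 46.6, 43.7 and 39.8 in EtOH and 39.6, 59.2 and 86.2 in EtOH4hLPS. Eci2 had more FPKM than Eci1 in all 12 libraries.

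**Figure D4:**
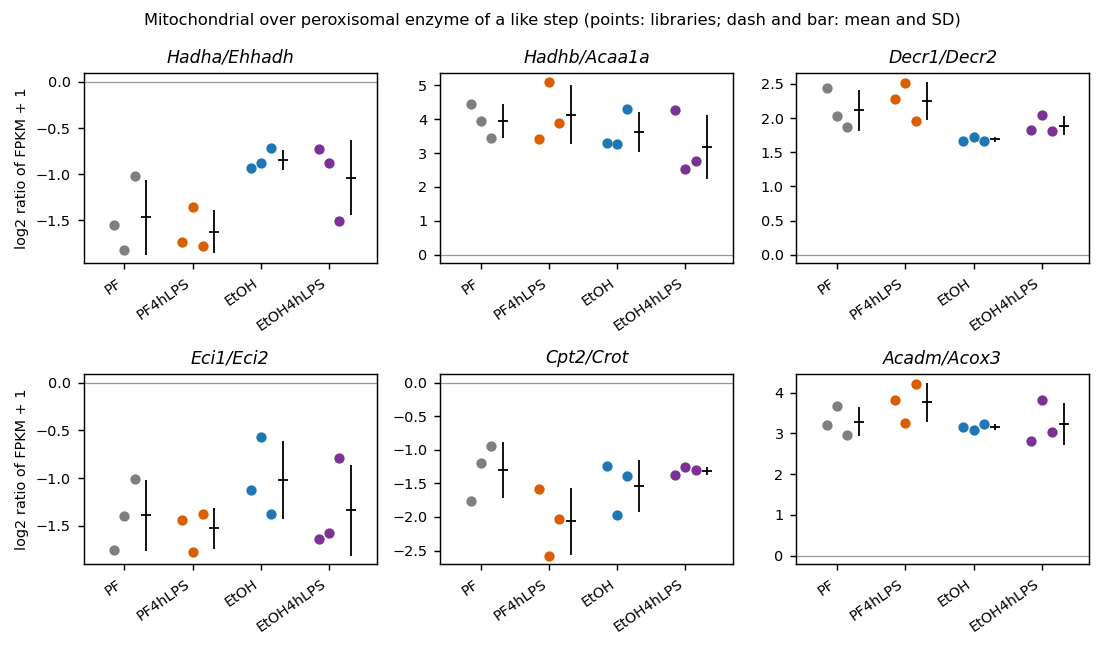
Log2 ratio of FPKM + 1 (y) of a mitochondrial to a peroxisomal enzyme of a like step (Eci2 is found in both organelles) in the 4 groups (x), for 6 pairs, with 1 point per library and a dash and bar for the mean and SD of 3 libraries. The y axes differ. EtOH lies above PF for Hadha/Ehhadh and below it for Decr1/Decr2, and EtOH4hLPS lies above PF4hLPS for Cpt2/Crot. These separations were not tested.

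Ethanol without LPS (EtOH against PF) addressed the diet alone. By limma 0 of 33 members passed (0.0284% of all genes tested, 4 genes, did), and 5 of 33 had an unadjusted p under 0.05, against 521 of 14109. The fold changes of 28 of 33 members were negative (15.2% positive, against 47.8% of all genes tested), with a median of −0.26 against −0.01 over all genes tested. Without EtOH library 2 the median was −0.14. Groups did not overlap for 10 members (30.3%, against 12.6% of all genes tested), 9 lower on ethanol (6.93% of all genes) and 1 higher (5.63%). Ehhadh had EtOH libraries of 177, 153 and 173 FPKM, all below the PF libraries given above, and a log2 fold change of -0.93 ± 0.29 (unadjusted p = 0.00862; limma adjusted p = 1.0). Both carnitine palmitoyltransferases lay apart in the same direction, Cpt1a at 121 ± 7.54 FPKM in PF and 83.4 ± 9.96 in EtOH (-0.54 ± 0.20) and Cpt2 at 112 ± 15.2 and 74.9 ± 14.3 (-0.58 ± 0.20). The carrier between them, Slc25a20, overlapped (-0.29 ± 0.23). Decr1 was at 128, 119 and 100.1 FPKM in PF, all above EtOH (-0.51 ± 0.18), and Eci2 at 140.4, 156 and 112 in PF, also all above EtOH (-0.59 ± 0.27). Pdk4 was lower in each EtOH library than in each PF library (-1.35 ± 1.02), with PF library 3 close to EtOH library 2. Acadm, Echs1 and Acot2 completed the 9, at −0.42, −0.21 and −0.26. Ppargc1a was the one member higher in every EtOH library (0.22 ± 0.36). EtOH is also the saline group of the LPS comparison on ethanol, so its low values enter both sets of fold changes.

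Ethanol with LPS (EtOH4hLPS against PF4hLPS) had 0 of 33 members called by limma (0.0992% of all genes tested, 14 genes, were), with 3 at an unadjusted p under 0.05, against 1523 of 14109. Groups did not overlap for 4 members (12.1%, against 10.9% of all genes tested, 5.34% higher and 5.59% lower), higher on ethanol for Acaa2 and Ppara and lower for Acadl and Crot. The median over the members was 0.12, against −0.0027 over all genes tested, and it moved with single libraries, to 0.01 without PF4hLPS library 2, 0.062 without EtOH4hLPS library 3, 0.207 without PF4hLPS library 1 and 0.221 without EtOH4hLPS library 1. With equal total FPKM it was 0.384, where the median of all genes was 0.19. The mitochondrial median was −0.021 without PF4hLPS library 2 and −0.006 without EtOH4hLPS library 3. The mitochondrial thiolase Acaa2 was at 80.4, 34.9 and 79.0 FPKM in PF4hLPS and at 90.2, 149.7 and 129 in EtOH4hLPS, against 55.7, 80.5 and 95.6 in PF and 105, 85.3 and 109 in EtOH. PF4hLPS library 2 was its lowest library in the series (log2 fold change 0.98 ± 0.33; limma adjusted p = 0.301). Crot (-0.74 ± 0.26; limma adjusted p = 0.335) and Ppara (0.59 ± 0.27; adjusted p = 0.457) had the values given above. Acaa1a and Acaa1b overlapped between the diets (0.95 ± 0.47 and 0.69 ± 0.47). Across all genes tested, the fold change of this comparison had a Spearman correlation of 0.347 with GC content, against −0.309 and −0.103 for LPS on the control and ethanol diets and −0.034 for ethanol without LPS. Acaa2 has 52.8% GC, and the part of GC content in its value was not tested. Averaged over both LPS states, 0 of 33 members passed (0.319% of all genes did), with a median of −0.048 and a range from -0.59 (Ehhadh) to 0.68 (Acaa2). The thioesterase Acot1, at 20.97, 21.2 and 7.62 FPKM in PF, 23.3, 9.47 and 14.9 in PF4hLPS, 11.99, 6.71 and 13.3 in EtOH and 8.98, 11.3 and 10.8 in EtOH4hLPS, gave -0.51 ± 0.28, with 1 low library in PF.

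**Figure D5:**
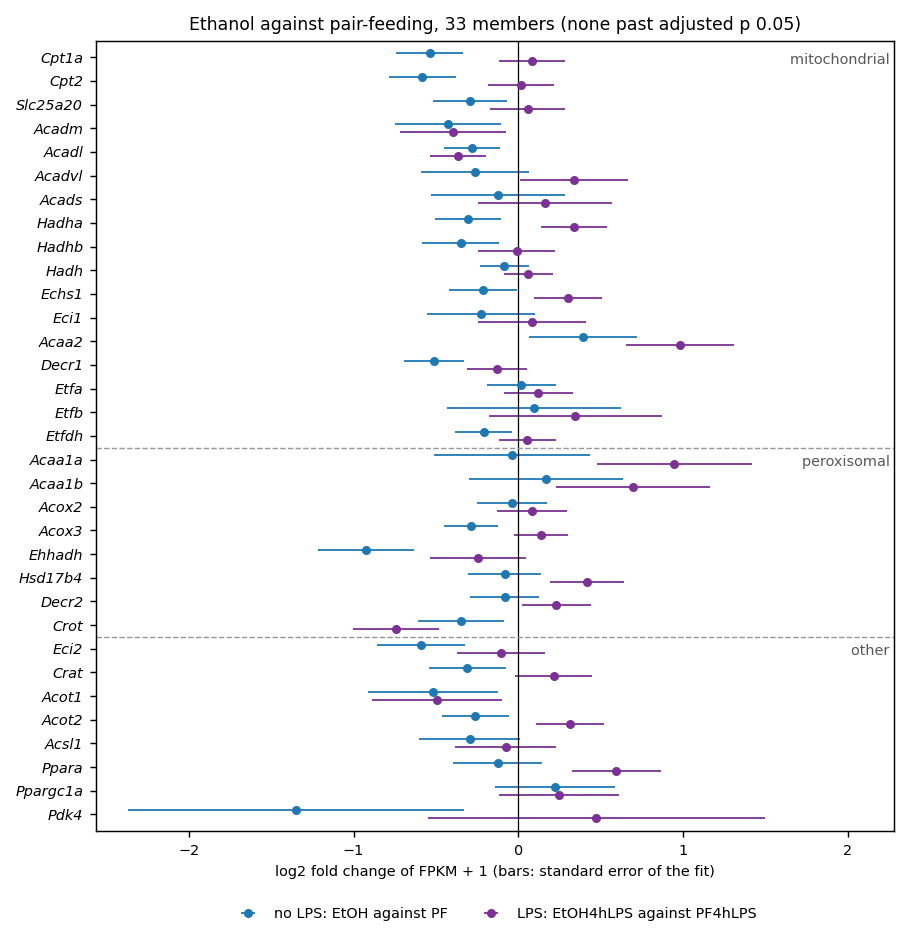
Log2 fold change of FPKM + 1 (x) of ethanol against pair-feeding for each of the 33 members (y, by compartment), without LPS (blue) and with LPS (purple). Bars are standard errors of the fit, and 0 members passed limma adjusted p 0.05. Without LPS 28 of 33 points lie below 0, and with LPS 9 of 33 do.

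Whether the LPS response differed between diets was tested as the interaction in limma. It called 0 of 33 members (0.0284% of all genes tested, 4 genes), with 1 at an unadjusted p under 0.05, against 615 of 14109. That one was Hadha, whose LPS fold change was -0.12 on the control and 0.53 on the ethanol diet, a difference of 0.64 ± 0.28 (adjusted p = 0.988). Pdk4 had the highest difference, 1.82 ± 1.44 (adjusted p = 0.988), and Crot the lowest, -0.39 ± 0.37. The difference was positive for 31 of 33 members (93.9%, against 51.6% of all genes tested), with a median of 0.38 against 0.012 over all genes, and with medians of 0.34 in the mitochondrial and 0.46 in the peroxisomal class. The median over the members was 0.608 without EtOH4hLPS library 1, and the class medians were 0.242 and 0.246 without PF4hLPS library 2, 0.587 and 0.589 without EtOH4hLPS library 1, 0.303 and 0.303 without EtOH4hLPS library 2, and 0.333 and 0.335 with the GC trend removed. The direction of the median over the members was the same in 23 of 23 alternative settings that give an interaction. The members are not independent of each other within a library, so no p was given over them.

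Other genes around the pathway were counted from lists written beside the members. Of all genes tested, 11.3% were called higher and 6.89% lower with LPS in pair-fed mice, and 10.7% and 6.39% in ethanol-fed mice. With such shares, 1 or 2 calls in a list are not a result about that list. Of 16 genes of fatty acid uptake and activation 1 rose with LPS in each diet, Acsl4, a synthetase that prefers arachidonic acid (1.41 ± 0.25 in pair-fed, limma adjusted p = 0.00175, and 1.78 ± 0.25 in ethanol-fed mice, adjusted p = 0.000324). The member of that family, Acsl1, did not pass (-0.41 ± 0.31 and -0.19 ± 0.31). Of 21 tested peroxisomal matrix enzymes and transporters 0 rose and 4 fell in pair-fed mice, where Amacr, the racemase for branched chains, was at 113, 109.7 and 102 and 49.95, 72.8 and 80.1 FPKM (-0.70; limma adjusted p = 0.0213). Acot3 (-1.32) and Abcd4 (-0.79) were also among them. Single omissions ended these 3 calls: PF library 1, 2 or 3 or PF4hLPS library 1 for Amacr (adjusted p 0.0506 to 0.0758), PF library 3 for Abcd4 (0.0688) and PF library 2 for Acot3 (0.0535). The count of this list was 0 higher and 7 lower with equal total FPKM, and 0 and 6 with quantile normalization. Under these scalings 2565 and 1168 of the 14109 genes tested were called lower, against 972 without them. In ethanol-fed mice 2 rose, the CoA diphosphatase Nudt19 (0.82) and the CoA carrier Slc25a17 (0.81), and Acot3 fell (-1.05). Slc25a17 was not called with equal total FPKM (adjusted p = 0.194) or quantile normalization (0.0944), Nudt19 was lost with any of the 6 libraries of the comparison left out (0.0537 to 0.105), and Acot3 with any of those but EtOH4hLPS library 1 (0.051 to 0.14). With equal total FPKM the list had 0 higher and 4 lower, and with quantile normalization 0 and 2. Of the 14109 genes tested, 1772 and 971 were then called lower, against 902 without these scalings. Of 16 peroxisome biogenesis factors 0 were called in pair-fed mice and 1 rose in ethanol-fed mice, Pex11a, which drives peroxisome division and is a PPAR alpha target (0.98 ± 0.21; limma adjusted p = 0.00623, and 0.106 with equal total FPKM). Of 18 tested further mitochondrial acyl-CoA enzymes the thioesterase Acot9 rose in each diet (0.64 and 0.90). In pair-fed mice its call was lost without PF library 2 or 3 or PF4hLPS library 2 or 3 (adjusted p 0.0507 to 0.0935) and under both other scalings (0.505 and 0.18). Of 6 ketone body enzymes 0 were called in either diet.

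Among 15 tested PPAR alpha targets outside oxidation, 0 rose and 1 fell (Acot3) with LPS in pair-fed mice, while on the ethanol diet 4 rose and 1 fell. For this and the next lists the shares of all genes tested were 11.3% higher and 6.89% lower in pair-fed mice. In ethanol-fed mice they were 10.7% and 6.39%. The interaction called 0 of the 15, and the median log2 fold change was 0.41 on the control diet and 0.70 on the ethanol diet. Angptl4, an inhibitor of lipoprotein lipase, was at 4.82, 5.76 and 6.07 FPKM in EtOH and at 23.3, 129.5 and 105 in EtOH4hLPS (3.41 ± 0.58; limma adjusted p = 0.00214). In pair-fed mice it was at 16.6, 20.5 and 12.8 FPKM with saline and 46.8, 17.8 and 53.6 with LPS, which overlapped (1.08 ± 0.58; limma adjusted p = 0.236). In ethanol-fed mice library 1 was again the lowest of the LPS group, as for Pdk4. Plin2, a lipid droplet coat protein, was at 38.2, 32.9 and 29.6 and 47.6, 242 and 389 FPKM (2.27 ± 0.66; limma adjusted p = 0.039), a call kept with only PF4hLPS library 2 or EtOH4hLPS library 1 left out among the 12 single omissions (0.0504 to 0.135 in the others), and lost with equal total FPKM (0.0919) and quantile normalization (0.0758). In pair-fed mice Plin2 was at 26.5, 38.2 and 36.2 and 132, 48.5 and 130 FPKM, all LPS libraries above saline (1.47 ± 0.66; limma adjusted p = 0.158). Tsku (1.92, and 0.50 with adjusted p = 0.317 in pair-fed mice) and Pex11a were the other 2 that rose in ethanol-fed mice, and Acot3 fell. Of 20 tested regulators of oxidation 0 rose and 4 fell in pair-fed mice: Lpin1 (-1.08), Ppargc1b, the paralog of Ppargc1a (-1.04), Klf15 (-0.96) and Hnf4a (-0.95). Hnf4a was lost without PF library 2 or 3 or PF4hLPS library 3 (adjusted p 0.0519 to 0.0789) and Lpin1 without PF library 3 (0.0597), and Ppargc1b was not called after the GC trend of each library was removed (0.188). In ethanol-fed mice 0 rose and 1 fell, Klf15, from 14.9 ± 0.665 to 3.24 ± 0.427 FPKM (-1.91 ± 0.18; limma adjusted p = 1.17e-05). Around pyruvate dehydrogenase, the phosphatase Pdp2, which opposes Pdk4, was at 11.7, 12.1 and 14.5 and 4.02, 3.79 and 2.095 FPKM in pair-fed mice (-1.71 ± 0.26; limma adjusted p = 0.000574) and at 14.7, 12.5 and 16.9 and 4.99, 2.14 and 2.98 in ethanol-fed mice (-1.89 ± 0.26; adjusted p = 0.000282). It fell in both, and the other phosphatase, Pdp1, rose in pair-fed mice (0.67; adjusted p = 0.268 with equal total FPKM and 0.0616 without PF library 3), among 9 genes. Averaged over LPS states, 2 genes of these lists, named after their values were seen, were lower on ethanol, Lpl, lipoprotein lipase (-1.60 ± 0.25; limma adjusted p = 0.0299), and the fatty acid hydroxylase Cyp4a12a (-2.25 ± 0.36; adjusted p = 0.0306). Most single omissions ended these calls, for Lpl all but those of PF4hLPS libraries 1 and 2 and EtOH4hLPS library 3 (0.0518 to 0.108 in the others), and for Cyp4a12a all but those of PF4hLPS library 1 and EtOH4hLPS library 1 (0.0565 to 0.107).

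The LPS comparisons of the 2 diets share no library with each other, whereas each ethanol comparison shares a group with each of them.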

How the data were processed

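Kidney RNA of 12 mouse libraries, 4 groups of 3, was extracted with mirVana and prepared with a TruSeq Stranded Total RNA kit with Ribo-Zero Gold, per the labels' protocols. Per the submitters' processing notes, the authors used build mm10 and, in an order the notes do not give, Cuffnorm, Cuffdiff 2.1.1, Cufflinks 2.2.1, TopHat2 2.0.4 and FastQC 0.10.1. The annotation release and strand setting are not given in the sources used. The authors deposited FPKM per gene and library, and no count was used. FPKM values scaled by the authors are relative, so a shift of all genes cannot be seen in them, and depth was estimated only from the steps between low values. Symbols were matched to GENCODE M21 by identifier (47305 of 47719 genes), and 0 columns of values were left unmapped.

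limma 3.58.1 in R 4.3.3 was fitted to log2(FPKM + 1) of the 14109 genes that reached 1 FPKM in 3 of 12 libraries, with 1 mean per group, a trended robust prior and Benjamini-Hochberg adjustment over all genes tested; calls are at adjusted p under 0.05, two-sided. Simulated data with log2 changes of 1 and 2 in the LPS comparison served as a test of the script. The members and lists were chosen with earlier results of these data known. Members picked for library values were those past the threshold in any comparison, the 4 with the largest absolute fold change in each, both genes of each step pair, the 3 regulators and Cpt1a. Their values were given for every library, except for Decr1 (not in PF4hLPS) and Decr2 (a range). From the other lists, up to 4 called genes per list and LPS comparison were named. Of these only Amacr, Angptl4, Plin2 and Pdp2 have library values, Amacr in pair-fed mice only. Alternatives were other pseudocounts, filters and scalings, fits of the 2 groups alone, a replicate block, another prior, each library left out, and, added after seeing the data, removal of the GC trend and omission of 3 libraries low in GC-rich genes. Promoters are from RefSeq. Protein sequences and peroxisomal targeting signals were not analysed here. One called gene of the other lists is not reported here.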

Additional observations from a re-analysis of the deposited data

How the results depend on the processing

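The counts of called members rest on few genes near the threshold, and they moved with several choices. For LPS in pair-fed mice (1 higher, 1 lower) they were 0 and 0 with no filter on low values, 0 and 3 with equal total FPKM and with quantile normalization, 0 higher with the replicate block, 2 higher with no trended robust prior and 2 higher with the 3 libraries low in GC-rich genes left out, and 0 to 3 higher and 0 to 1 lower with 1 library left out. For LPS in ethanol-fed mice (2 higher, 1 lower) they were 1 and 0 with no filter and with the 2 groups fitted alone, 1 higher with equal total FPKM, quantile normalization and the replicate block, 7 higher with the 3 libraries left out, and 0 to 5 higher and 0 to 1 lower with 1 library left out. The mitochondrial minus peroxisomal median was −0.02 with quantile normalization and −0.024 to 0.128 with 1 library left out in ethanol-fed mice, and 0.025 to 0.263 with 1 library left out in pair-fed mice, where it was 0.01 with the GC trend removed and 0.057 with the 3 libraries left out. With no filter more genes (36616) enter the adjustment, and with the 2 groups alone fewer libraries set the spread; for the other choices the cause was not tested. No called value reversed under these alternatives, the other lists included, and the ethanol comparisons and the interaction had 0 members called under each of them. Of 193 values of members that were not called, 96 changed sign under at least 1 alternative. Over all genes tested, the share of calls that were higher was 62.0% and 62.5% after LPS in pair-fed and ethanol-fed mice, and 25.1% and 35.5% with equal total FPKM. The counts lower rose from 972 to 2565 and from 902 to 1772, and were 1168 and 971 with quantile normalization. With the 3 libraries left out, 1417 genes were called higher and 798 lower in pair-fed mice, and 1806 and 1419 in ethanol-fed mice. No pairing of the samples by replicate number was seen. Deviations from the group means correlated at −0.206 to 0.279 between samples of the same number (18 pairs) and −0.35 to 0.391 between others (36 pairs). Such overlapping ranges cannot exclude a weak pairing. With the replicate block Crot in pair-fed mice had an adjusted p of 0.0631 and Cpt2 in ethanol-fed mice 0.0621 (limma). FPKM give no counts, so no counting interval was made.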
